A study of Drosophila melanogaster with 2 samples.

Results

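The genes described here carry growth signals from insulin-like peptides and nutrients in Drosophila melanogaster: Lk6, ImpL2, Thor, InR, chico, Pi3K92E, Akt, foxo, Tor and S6k. They are 10 of the 13945 protein-coding genes on the main chromosome arms. They were chosen by their pathway and by the pooled peak signals of Lk6 and ImpL2, which hold strong peaks, so these values are given as a description, with no test. Every summit inside the gene body or within 1 kb of it, called the gene's territory, was counted for the gene. A peak counted in this way can lie nearer to the start site of another gene, and for reproducible peaks such cases are named.

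The peaks come from chromatin immunoprecipitation and sequencing (ChIP-seq) of abrupt (ab), a transcription factor with a BTB domain and zinc fingers, pulled down through a GFP tag with an anti-GFP antibody. The strain, named ab-GFP in the labels, stably expresses ab with GFP fused to its C-terminus. Whole embryos of pooled sexes, 0 to 24 hours old, gave 1 group of 2 biological replicates, with chromatin sonicated to 200 to 800 bp. The promoter that drives the transgene, and whether untagged ab was also present, are details not given in the sources used here. All tissues and stages were mixed, so binding in few cells and weak binding in many cells cannot be told apart, and no cell type can be assigned to a peak.

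In flies, insulin-like peptides bind the insulin receptor InR, whose substrate chico recruits phosphoinositide 3-kinase (Pi3K92E is its catalytic subunit), which leads to activation of the kinase Akt. Akt holds the transcription factor foxo out of the nucleus, while the kinase Tor, also fed by amino acids, acts through S6k and through Thor, the 4E-BP that restrains translation. ImpL2 is a secreted protein that binds insulin-like peptides and antagonises the pathway, and Lk6 is a kinase of the MNK type that phosphorylates the cap-binding factor eIF4E.

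The sequences at the summits of Lk6, of the main ImpL2 peaks and of Thor are shown because the strongest signals, the longest shared run of letters and the single forkhead-type word lie in them. Each runs 5′ to 3′ on the plus strand of RefSeq Release 6 (dm6) and covers 101 bases centred on the summit. Capitals mark CACTG or its reverse complement CAGTG at Lk6, and the same words together with a shared run that contains CACTG at ImpL2. At Thor they mark GTAAACA.
Lk6 (chr3R:11760996-11761096): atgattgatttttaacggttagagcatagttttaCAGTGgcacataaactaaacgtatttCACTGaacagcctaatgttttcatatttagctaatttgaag
ImpL2 (chr3L:4228282-4228382): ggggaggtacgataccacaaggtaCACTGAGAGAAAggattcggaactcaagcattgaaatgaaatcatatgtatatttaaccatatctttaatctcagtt
ImpL2 (chr3L:4230383-4230483): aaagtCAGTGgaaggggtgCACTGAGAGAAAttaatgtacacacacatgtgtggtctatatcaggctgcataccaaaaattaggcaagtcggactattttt
Thor (chr2L:3478456-3478556): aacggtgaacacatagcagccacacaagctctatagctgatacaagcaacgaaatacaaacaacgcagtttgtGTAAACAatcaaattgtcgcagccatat

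The authors' dm6 files list 1664 reproducible peaks, 21376 regions of the pooled replicates and 30000 regions for each replicate. Signal is the authors' score of a region, on a scale the files do not state, and read depth is unknown, so no counting error could be given. The reproducible peaks had signals of 51.8 to 1007 with a median of 75.1 and quartiles of 60.3 and 103. Pooled regions had a median of 20.4, replicate 1 regions 8.68 and replicate 2 regions 11.5. A reproducible peak was counted as present in a replicate when that replicate had a summit within 200 bp.

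Of the 10 growth genes 6 held a reproducible peak, beside 13.2% of all protein-coding genes under the same rule. They were Lk6, ImpL2, Thor, InR, Akt and Tor, with 11 peaks between them. ImpL2 and InR held more than 1 peak, and 2.25% of protein-coding genes held 2 or more. Long territories catch more peaks, and several growth genes are long. Of the 6 growth genes with territories of 10 kb or more, 4 held a peak, beside 26.7% of all such genes. Of the 4 shorter ones, 2 did, beside 10.5%. Because Lk6 and ImpL2 were named for their peaks, nothing is read from these shares about the group. In the pooled list all 10 genes held a region, beside 63.4% of protein-coding genes.

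**Figure D1:**
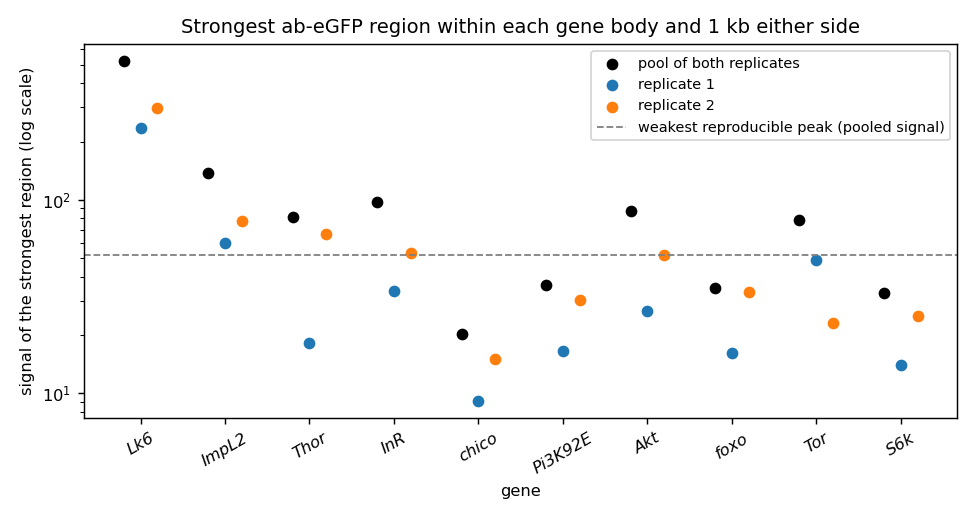
Strongest signal in the territory of each growth gene in the pooled list and in each replicate list, on a log axis in the authors' signal units. Lk6 stands alone at 522 and ImpL2 follows at 137, while chico, Pi3K92E, foxo and S6k lie between 20.1 and 36.3.

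Lk6 carried the strongest peak of the group. The gene lies on chromosome 3R from 11750931 to 11764457 on the minus strand, and its single reproducible peak spanned 11760872 to 11761203 with a summit at 11761046. The pooled signal was 522, the number 6 of 1664 and within the top 0.36%. The summit lay in an intron of the longer of 2 transcripts, 967 bp upstream of the inner start site and 3411 bp inside the outer one. The other pooled regions of the territory reached 16.1 to 24.95, so the peak was 20.9-fold above the next. Lk6 is thus a gene with 1 dominant region among much weaker ones. Its territory held 0.322 pooled regions per kb, beside 0.160 per kb of genome.

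Both replicates placed this Lk6 region near the top of their own lists. Replicate 1 gave a signal of 236, number 10 of its list, with a summit 5 bp away. Replicate 2 gave 299, number 4 of its list, with a summit 22 bp away. The log2 difference, replicate 2 minus replicate 1, was 0.34. Over the 1590 reproducible peaks matched in both replicates this difference had a median of 0.05 and an SD of 0.88, so the replicates differed at Lk6 by less than that spread. The Lk6 region was 332 bp wide, where most reproducible peaks were 510 bp. Of all reproducible peaks 189 (11.4%) were narrower than that, with a median signal of 187 against 71.0 for the full width, and Lk6 was the only growth gene peak among them.

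ImpL2, the secreted antagonist, held 3 reproducible peaks. The gene spans 4224006 to 4236147 on the minus strand of 3L. All 3 summits fell in an intron that 1 of its 4 transcripts spans, over 2.32 kb. The strongest, from 4228077 to 4228586, had a pooled signal of 137 (number 213), with 59.4 in replicate 1 and 77.8 in replicate 2. It lay 1030 bp upstream of a start site that ImpL2 shares with CG46460. The second, from 4230178 to 4230687, had a pooled signal of 107, with 58.3 in replicate 1 and 52.4 in replicate 2. These 2 peaks were similar in signal between replicates, with log2 differences of 0.39 and -0.16. The replicate 2 summit counted for the second lay 154 bp from it, while that of replicate 1 lay at the same base.

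The weakest ImpL2 summit, at 4230650, lay 217 bp from the second and had a pooled signal of 54.8, close to the lowest of the list. Replicate 1 had no summit within 200 bp of it. The nearest replicate 2 summit was the same for both, 63 bp from this one and 154 bp from the second. The replicates thus do not separate these summits, and merging summits within 300 bp leaves 10 peaks at the growth genes. Such close neighbours are not particular to ImpL2, since 79 reproducible peaks have a stronger reproducible summit within 300 bp.

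**Figure D2:**
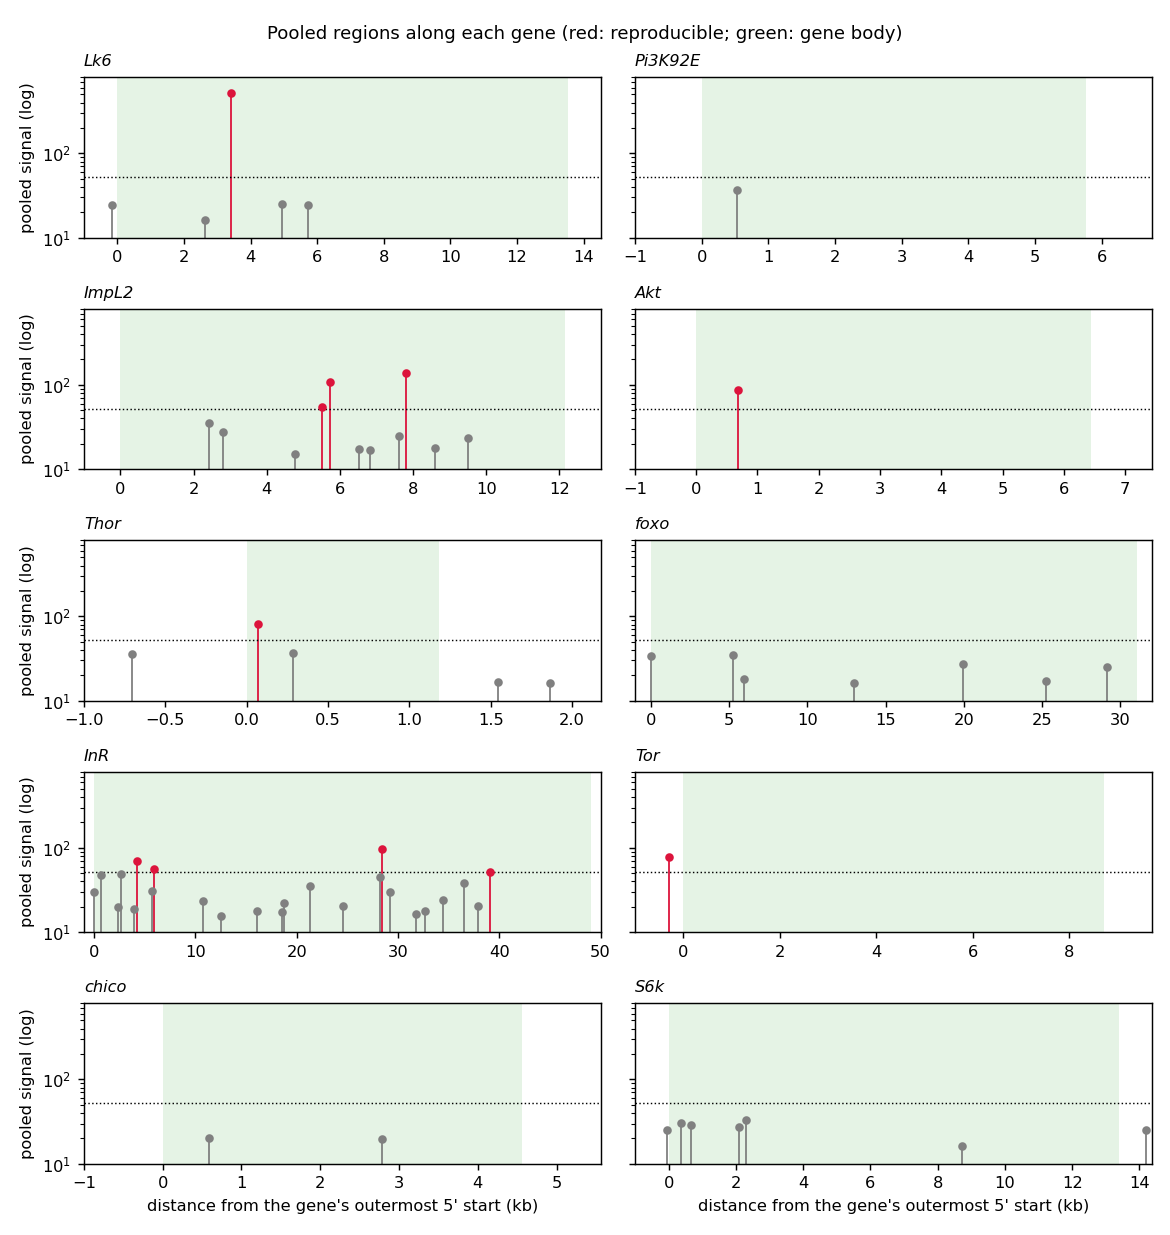
Pooled regions along the 10 growth genes, with distance in kb from the gene's outer start on the horizontal axis and pooled signal on a log vertical axis (red, reproducible peaks; grey, other pooled regions; green, gene body; dotted line, lowest signal of the reproducible list). Lk6 has 1 region far above the rest, ImpL2 has its reproducible peaks within 2.32 kb, and those of InR are spread over 34.8 kb.

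InR, the receptor, is the longest of these genes, from 21570248 to 21619321 on the minus strand of 3R, and held most regions. Its territory had 24 pooled regions, 14 of replicate 1 and 37 of replicate 2. Per kb it held 0.470 pooled regions, fewer than ImpL2 (0.778) and Thor (1.57) and more than the other growth genes. Among as many of each replicate's strongest regions as the reproducible list holds, InR had 7 in replicate 2 and 1 in replicate 1. The InR signal thus came more from replicate 2 than from replicate 1.

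The strongest InR peak, from 21590590 to 21591099, lay in an intron 654 bp upstream of the nearest InR start site. The pool gave 97.3, replicate 1 gave 33.9 and replicate 2 gave 53.2. The peak at 21615052 had a pooled signal of 69.3, with 21.6 and 38.3 in replicates 1 and 2, and lay in an exon of the non-coding gene lncRNA:CR44034, 688 bp from its start. The peaks at 21613426 and 21580234 had pooled signals of 56.2 and 51.9, and 52.6 and 48.4 in replicate 2. Neither had a replicate 1 summit within 200 bp, so they rest on replicate 2 together with the pool. The summit at 21580234 was in coding sequence, a class with 3 of the 1664 reproducible peaks, and at 21613426 the nearest start was that of lncRNA:CR44034, 2314 bp away.

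InR also sits on the threshold of the reproducible list. Just inside were the InR peak at 51.9 and the weakest ImpL2 peak at 54.8. Just outside were InR regions with pooled signals of 49.1, 48.2 and 45.6. Both lists were ranked here by signal. At all 6 genes with a peak the strongest one had the same rank in both, so no stronger pooled region was missing from the reproducible list. Equal ranks do not show how the authors' method ordered its list. With InR regions on either side of the cut, the number of InR peaks depends on where the list ends.

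Akt, the kinase downstream of the receptor, lies from 16099228 to 16105670 on the plus strand of 3R. Its peak, from 16099656 to 16100165, had its summit in an intron 683 bp downstream of the nearest start. The signal was 26.7 in replicate 1, 51.9 in replicate 2 and 87.8 in the pool. It was the only pooled region in the territory, and its log2 difference of 0.96 was just over 1 SD from the median of all matched peaks.

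Tor, the nutrient-sensing kinase, lies from 13004480 to 13013197 on the plus strand of 2L. Its peak, from 13003935 to 13004444, was a promoter peak, 290 bp upstream of Tor and 83 bp upstream of Vha68-1, a gene for a subunit of the proton-pumping V-ATPase. The signal was 48.4 in replicate 1, 22.9 in replicate 2 and 78.8 in the pool. This was the only growth gene whose strongest region was higher in replicate 1, by 2.12-fold, a log2 difference of -1.08. The position does not say which of the neighbouring genes the peak belongs to.

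Thor, the translational repressor and a textbook foxo target, lies from 3478434 to 3479612 on the plus strand of 2L. Its peak, from 3478251 to 3478760, was centred 16 bp upstream of the nearest of its 2 start sites. The signal was 18.0 in replicate 1, 66.5 in replicate 2 and 81.0 in the pool. The 3.69-fold gap, a log2 difference of 1.88, was the widest among the 8 growth gene peaks matched in both replicates and over 2 SD of the spread of all matched peaks. In replicate 1 the region was number 2755, outside its 1664 strongest. The Thor peak thus rests on replicate 2 more than any other matched peak of these genes.

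**Figure D3:**
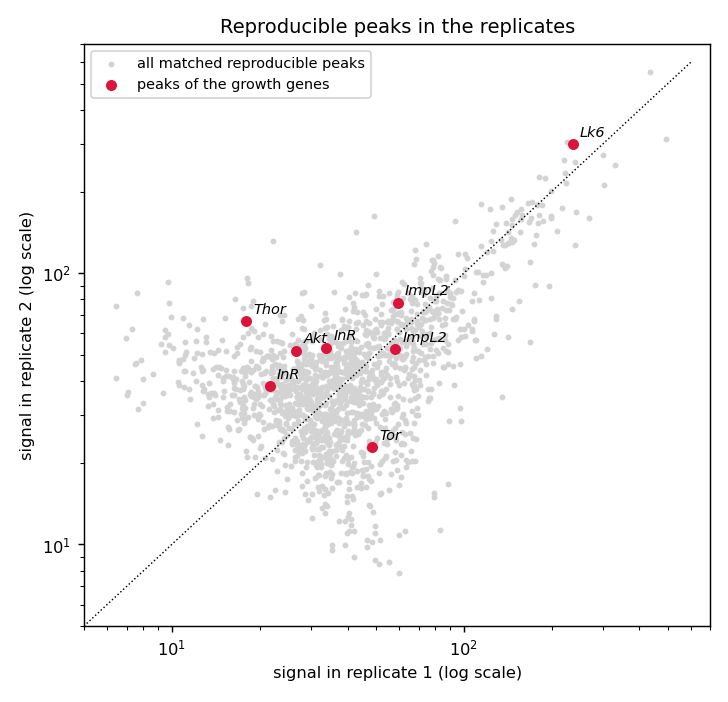
Signal in replicate 1 against replicate 2, both on log axes in the authors' units, for reproducible peaks matched in both replicates (grey) and the growth gene peaks (red, named), with equality as a dotted line. Lk6 is near the top right at 236 and 299, Thor lies at 18.0 and 66.5, and Tor at 48.4 and 22.9.

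The remaining 4 genes held pooled regions below the reproducible list. At Pi3K92E, the catalytic subunit, the single pooled region had a signal of 36.3, with 16.4 in replicate 1 and 30.2 in replicate 2, and lay in the 5′ UTR. At foxo the strongest of 7 pooled regions had a signal of 34.8 in an intron, and another of 33.9 lay 8 bp from a start site. The strongest foxo regions of the single replicates had signals of 16.1 and 33.2, and that of replicate 2 was among its 1664 strongest. At S6k the strongest of 7 pooled regions had a signal of 33.0, matched by 25.1 in replicate 2 and by no replicate 1 summit. The highest replicate 1 signal, 13.9, came from a region 205 bp from the start of Tektin-C. At chico, the receptor substrate, the strongest pooled region had a signal of 20.1, near the median of the pooled list. Its signals in replicates 1 and 2 were 7.14 and 13.8. The highest of the territory, 9.09 and 15.0, came from other sites. Of the 21376 pooled regions these were number 3201 at Pi3K92E, 3466 at foxo, 3816 at S6k and 10997 at chico. All 4 genes thus had regions weaker than the reproducible peaks, and a lack of a reproducible peak does not show a lack of binding.

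The highest signal in the territory, which at chico, foxo and S6k came from different sites in the replicates, was higher in replicate 2 for 9 of 10 growth genes. The same held for 65.2% of the 8035 protein-coding genes with regions in both replicates. Of the 8 peaks matched in both whole lists, 6 were higher in replicate 2, as were 52.3% of all matched reproducible peaks. By list order rather than signal, 5 growth genes had one of the strongest 1664 regions of replicate 1, beside 14.2% of protein-coding genes, and 6 had one in replicate 2, beside 11.8%. In both replicates 4 genes did, beside 8.06%. Of the 11 peaks, 5 were matched in the strongest regions of both replicates, and 5 of the 8 matched in the whole lists lay within 1 SD of the median difference. Lk6 and the main ImpL2 peaks are among those seen in both, the second ImpL2 peak through a replicate 2 summit 154 bp away.

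Most growth gene peaks lay more than 500 bp from a start site. Of the 11 summits, 2 were in promoters (within 500 bp of a start site), 7 in introns, 1 in coding sequence and 1 in an exon of a non-coding gene. So 9 of 11 were outside promoters, beside 43.4% of all reproducible peaks, of which 56.6% were in promoters and 30.7% in introns. Within 1000 bp of a start site lay 6 of the 11, beside 67.3% of all reproducible peaks. The median distance to the nearest start site was 967 bp. For 8 of 11 summits that start belonged to the growth gene itself, shared starts included, and the others were nearest to Vha68-1 or lncRNA:CR44034. InR and ImpL2 supply 7 of the 11 peaks, so these positions are not independent of each other.

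**Figure D4:**
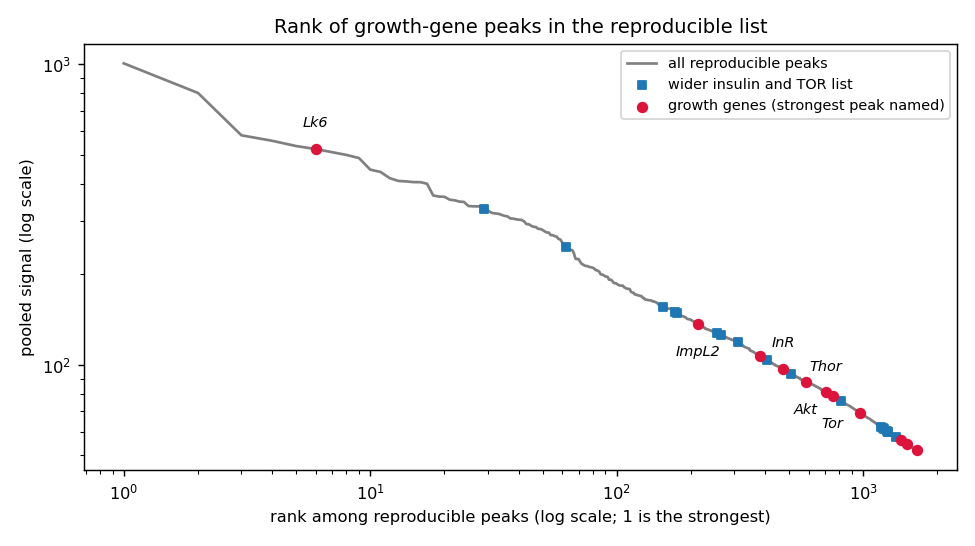
Pooled signal against rank for all reproducible peaks (grey line), with the growth genes in red and the wider insulin and TOR list in blue, both axes logarithmic. Lk6 is number 6, ImpL2 number 213, and the growth gene peaks continue to number 1659.

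By strongest pooled signal, 8 protein-coding genes stood above Lk6. The nearest above were CG1888 at 534, Ugalt and eIF2Bbeta at 556, and Chro and Ssl1 at 580.3, where paired names share a peak. The nearest below were ph-p at 509.7, CG9663 at 499 and px at 487. For ImpL2, 303 genes stood above, the nearest being Gapdh2 at 137.1, eff at 137.6 and CG13896 at 137.9. Next below were Cyp6u1, Ufsp1 and vimar at 136.9, Slob at 136.8 and Prps at 134.5. Lk6 thus sits where neighbouring ranks are far apart, and ImpL2 where they are nearly equal.

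The wider insulin and TOR pathway, as a list of 57 further genes, had 9 genes with a reproducible peak, 15.8%, beside the 13.2% of all protein-coding genes. This share is near the background. None of the 8 insulin-like peptide genes, all with territories under 10 kb, held a reproducible peak, beside 10.5% of such protein-coding genes. Only Ilp6 at 18.8 and Ilp8 at 15.0 held a pooled region, beside 39 of the 57 list genes and 63.4% of protein-coding genes. None of 4 lipid and kinase genes, 3 of TSC and Rheb, 2 of autophagy and 3 kinases upstream of Lk6 had a reproducible peak either. Nothing is read from counts this small. The highest pooled signals among list genes without a peak were 51.4 at Sin1 and 49.8 at raptor, both subunits of Tor complexes.

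The strongest peak of the wider list was at Sesn, the sestrin of the amino acid sensing branch. The pool gave 330.5 (number 29), replicate 1 gave 157 and replicate 2 gave 172, near a start that Sesn shares with CG46429. A further peak of 156 near the same start had no replicate 2 summit within 200 bp. Another, of 126, lay 213 bp from the start of lncRNA:CR45325 and 6894 bp from that of Sesn. At alc, the beta subunit of the energy-sensing kinase AMPK, the peaks had pooled signals of 247 and 57.4, the stronger one nearest to CG44286 and CG8788. SNF4Agamma, the gamma subunit of that kinase, had 3 peaks of 59.9 to 75.9. That of 62.3 had 6.94 in replicate 1 and 57.5 in replicate 2, an 8.28-fold gap. PRAS40, a Tor complex 1 component, had intron peaks of 149.9, 104 and 60.3. That of 104 had 21.8 in replicate 1 and 15.0 in replicate 2, and both replicates had a stronger region within 200 bp of it. REPTOR, a transcription factor restrained by Tor, had peaks of 149, 119 and 59.9, the last nearest to snRNA:U6:96Ac. Pi3K21B, the regulatory subunit of the lipid kinase, had a peak of 128 that lay 33 bp upstream of its start, with 61.6 and 55.8 in replicates 1 and 2. Single peaks lay at conv (93.5, nearest to Sps1), Wdr24 (61.8) and Myc (61.1). None of these reached the signal at Lk6.

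The letters under the summits were searched on both strands within 50 bp, beside the other 1653 reproducible peaks, flank windows 300 bp away and windows just upstream of annotated start sites. GAGAG, the core word of GAGA factor sites, was found at 4 of the 11 growth gene summits, a pair each at ImpL2 and InR. It was in 11.3% of the other peaks, 16.5% of flanks and 15.4% of the windows upstream of start sites. TGATAA was found at 2 InR summits, beside 8.29% of other peaks, 6.35% of flanks and 8.08% of windows upstream of start sites. ACACACAC was found at 1 ImpL2 summit, beside 1.51% of other peaks, 4.78% of flanks and 1.88% of those windows. The forkhead-type word GTAAACA was found at Thor alone, beside 2.78% of other peaks, 2.81% of flanks and 2.59% of start-site windows, so it is no more common at peaks than beside them. TATCGATA, GGTCACACT, CACGTG and CAGGTAG were at none of the 11, beside 1.88%, 0.544%, 1.21% and 0.484% of other peaks, so all 4 are rare there too. A match is a description of letters and not a bound site.

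CACTG, looked up after the sequences had been seen, was found at 5 of the 11 summits, namely Lk6, all 3 of ImpL2 and InR at 21580234. It was in 29.8% of the other peaks, 17.9% of flanks and 20.7% of start-site windows, so many other peaks share it. At Lk6 it occurred on both strands, 12 bp to one side and 14 bp to the other side of the summit. Around the other peaks it was found in 16.9% to 19.0% of 50 bp bins within 100 bp of the summit and in 8.35% to 10.9% of bins beyond 250 bp. Of the 6-letter words more frequent at other summits than in flanks, ACAGTG, which contains it, stood in place 9, and all above it were made of A and T alone. It was in 12.5% of other peaks, 5.08% of flanks and 1 growth gene summit, that of Lk6.

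**Figure D5:**
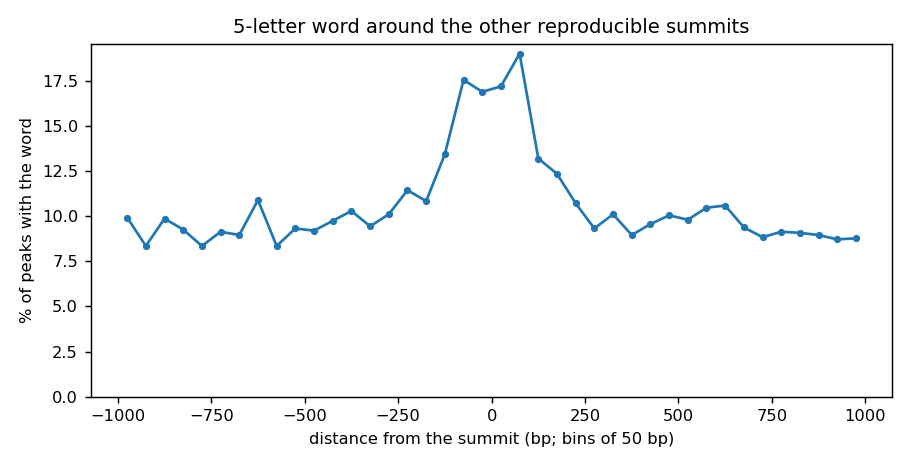
Percent of the other 1653 reproducible peaks with CACTG on either strand in bins of 50 bp, against distance from the summit in bp. The share is 16.9% to 19.0% within 100 bp of the summit and falls to 8.35% to 10.9% beyond 250 bp.

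The main ImpL2 peaks also share a longer run, in capitals above, which contains both CACTG and GAGAG. The run CACTGAGAGAAA of 12 letters was the longest shared by any of the 55 pairs of growth gene windows, the next longest being 10. It occurred in 12 of the other 1653 peaks (0.726%), whose signals ran from 55.2 to 102, and in 1 of 3306 flank windows (0.0302%). In the whole genome it occurred 688 times, of which 15 (2.18%) lay within 50 bp of a reproducible summit and 63 (9.16%) within 50 bp of a pooled summit. Most copies thus lie away from the pooled summits. Among the growth genes it was otherwise in the territory of S6k once, 98 bp from the nearest pooled summit.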

How the data were processed

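The 2 biological replicates of ab-GFP embryos were analysed as 1 group. Per the deposited description files, the authors called relaxed regions against a control for each replicate and the pool, and derived a reproducible list by the irreproducible discovery rate (IDR) method; signal in the deposited files was computed by the authors, with no stated scale. The aligner and caller are not stated (not given in the sources used here). Regions on dm6 were analysed. The dm3 lists were not used here, since coordinates were not converted. Genes came from Ensembl release 115 (BDGP6.54), limited to the 6 main arms, with sequence from the matching RefSeq assembly. All 10 growth genes and 57 of 57 list genes were matched, Tor as mTor.

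The genes, the pathway list and the rule for named genes were chosen with earlier results of these data known. The rule named all growth genes, list genes with a reproducible peak, the 3 genes next above and below Lk6 and ImpL2 in strongest signal, and other genes nearest to a growth gene peak. Other genes were named after their values were seen. Planned promoter sequences were replaced by 101-base windows just upstream of start sites. No test was run. Summits were given 1 of 7 classes, promoter first. Gene assignment, classes and word searches were tested on simulated data. Python 3.11.15, pandas 2.3.3, numpy 2.4.6 and matplotlib 3.10.9 were used. Alternatives were other territories, promoter sizes, match rules, motif windows and region lists.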

Additional observations from a re-analysis of the deposited data

How the results depend on the processing

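Of the alternative values, 22 moved and 49 did not, by limits of 1.5-fold for a count and 1.84-fold, the spread between replicates, for a signal. The 11 growth gene peaks became 7 above the list's median signal, 18 with 2 times as many pooled regions, and 6 to 13 with the strongest regions of a single replicate. The growth genes counted numbered 5 with replicate 1, where Thor was missing, and 6 with replicate 2, where Tor was missing and foxo was added. The 9 list genes became 15 with 5 kb flanks, 21 with 2 times as many pooled regions, and 9 to 15 with a single replicate. Promoter peaks rose from 2 to 6 at 1000 bp, and matched peaks from 5 to 8 with whole replicate lists. Strongest signals in single replicates ran from 236 to 299 at Lk6, 59.4 to 77.8 at ImpL2, 18.0 to 66.5 at Thor, 33.9 to 53.2 at InR, 26.7 to 51.9 at Akt and 22.9 to 48.4 at Tor. In wider windows GAGAG was in 8 peaks (whole region), CACGTG in 1 (100 bp and whole region), GTAAACA in 2 and 3, ACACACAC in 3 and 4, and CACTG in 9 (whole region). The cause of these changes was not tested. Merged summits, the nearest start of any gene for the list, and CACTG in wider windows were chosen after seeing the data. No paired analysis was possible because there is 1 group. Depth is unknown, and with 2 replicates both values stand in place of an SD. Tor had no value for the gene body alone, since its peak lies upstream.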
